A study of Mus musculus with 6 samples.

Results

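The p53 pathway was followed in the dorsal hippocampus of mice after knockdown of the long non-coding RNA Snhg11. The list held 34 genes of the 55401 in the gene counts: Trp53, which encodes p53, its repressors Mdm2 and Mdm4, and 31 genes known as p53 targets. They were chosen as known members of the pathway, with earlier results of these data known, and all 34 were among the 19969 genes that passed the filter on low counts. Total RNA was sequenced from the dorsal hippocampus of 4 months old wild type male mice, littermates of the Ts65Dn line, 3 days after 50 μg of an antisense oligonucleotide (ASO) had been infused into the dorsal dentate gyrus of each hemisphere. The ASOs were phosphorothioate gapmers with methoxyethyl sugars: 3 mice received the Snhg11-ASO, and 3 received the Control-ASO, whose bases were the same in a scrambled order. Mice of both groups had thus undergone the same anaesthesia, surgery and infusion. The samples were the dorsal parts of whole hippocampi, so that they held more tissue than the infused region.

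The transcription factor p53 is kept scarce in unstressed cells because Mdm2 marks it for degradation and Mdm4 masks the part of it that activates transcription. DNA damage, disturbed ribosome production and other stresses free p53 from these repressors, mostly without a change in its mRNA, and it then binds DNA at pairs of short palindromic half-sites beside the genes it activates. Those genes halt the cell cycle, favour repair or adapt metabolism, or lead to cell death, and Mdm2 is itself among them, which closes a negative feedback loop. In mature neurons, which no longer divide, p53 is best known for its part in cell death after injury.

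Libraries held 28951250 to 43997537 read pairs assigned to genes. Levels are given as CPM, the share of a library's counts on the usual scale for RNA-seq, after scaling between libraries, and fold changes as log2 values of Snhg11-ASO over Control-ASO with their standard errors (SE). Snhg11 itself was measured at 551, 436 and 209 CPM after Control-ASO and at 139, 65.4 and 69.4 CPM after Snhg11-ASO, so that every Snhg11-ASO sample was below every Control-ASO sample (exact two-sided permutation test, p = 0.1, the smallest that 3 against 3 samples allow). Its log2 fold change was -2.13 (SE 0.43, adjusted p = 0.395 by the quasi-likelihood test of edgeR, adjusted after Benjamini and Hochberg). By DESeq2 the adjusted p was 6.2e-05, within a range of 1.7e-05 to 0.951 over 17 alternatives. Neuronal, granule cell and CA1 markers were expressed in all libraries, and no gene of the marker lists was at 0 counts in any sample. Snhg11-ASO replicate 1 stood apart from all other libraries: its Spearman correlations with them across genes were 0.955 to 0.959, whereas all other pairs were at 0.979 or above. Values without it are therefore given beside most members, among them those whose fold change it moved most.

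At an adjusted p under 0.05, edgeR called 0 of the 34 members, with 0 of 19969 genes called in all (0%), so no member is described here as having risen or fallen. The members' adjusted p ran from 0.308 to 0.999. At an unadjusted p under 0.05, 13 members were higher in the Snhg11-ASO group, against 3.68% of all genes tested, and 2 were lower, against 4.43%. The 13 included Gdf15 (unadjusted p = 0.0197 from edgeR), whose direction was fixed by the filter on low counts, as described below. DESeq2, run as an alternative on the same samples, called 5 members higher, against 0.496% of the genes, and 1 lower, against 0.796%. These were Trp53inp1, Phlda3, Aen, Eda2r and Tnfrsf10b, all higher, and Mdm4, lower. Without Snhg11-ASO replicate 1, 2 or 3, DESeq2 called 7, 5 and 4 members, where 1.72%, 1.35% and 1.1% of all genes were called.

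In 16 of the 34 members (47.1%) every Snhg11-ASO sample was above every Control-ASO sample, which was so for 7.73% of all genes. In 2 members (5.88%), Mdm4 and Ddb2, every Snhg11-ASO sample was below, against 7.7% of all genes. The 31 targets had a median log2 fold change of 0.44, and all genes tested one of 0.01. One target, the cytokine gene Gdf15, was under the filter's level of 0.275 CPM in its Control-ASO samples and entered only through its Snhg11-ASO samples, so that its direction was fixed by the filter. Without it, 15 of 33 members had every Snhg11-ASO sample above, and the targets' median was 0.43. RNA of the whole dorsal hippocampus cannot tell a change in the number of cells that express a gene from a change in RNA per cell.

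**Figure D1:**
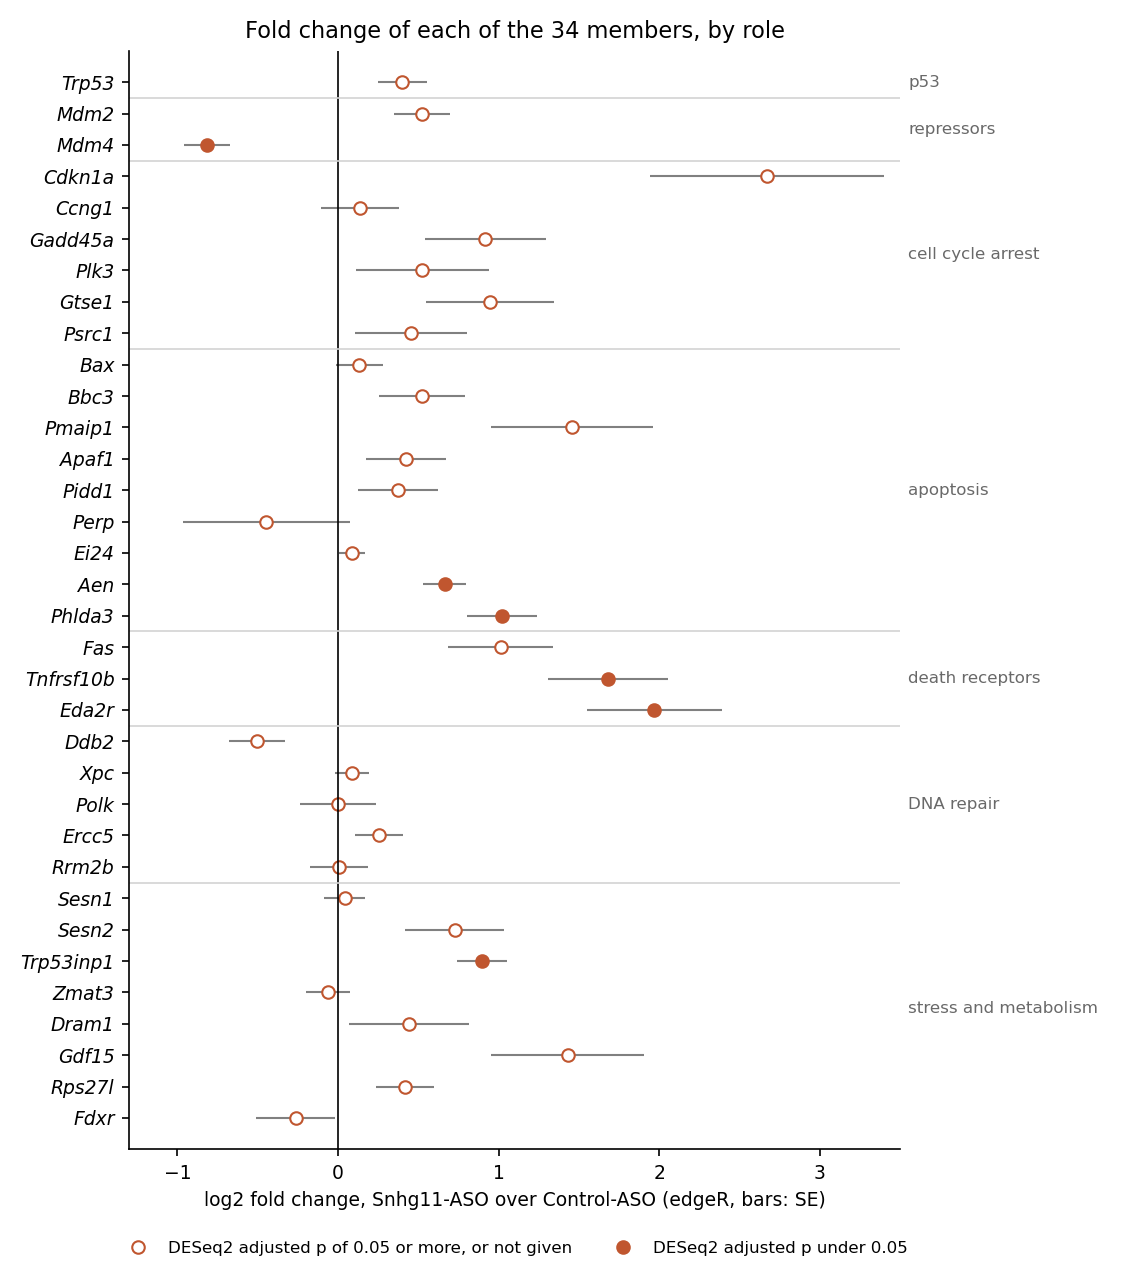
Log2 fold change (x axis) of each of the 34 members (y axis, in blocks by role) from edgeR, with bars of 1 SE over 3 Control-ASO and 3 Snhg11-ASO samples. Filled points are the 6 members with a DESeq2 adjusted p under 0.05. Death receptors lie farthest to the right as a block, with log2 fold changes of 1.01 to 1.97, whereas 4 of the 5 DNA repair genes lie between 0 and 0.26.

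Trp53 mRNA was modestly higher in the Snhg11-ASO group. It stood at 11.5, 13.8 and 11.3 CPM after Control-ASO and at 18.5, 15.2 and 14.6 CPM after Snhg11-ASO, with no overlap between the groups. Trp53 differed by a log2 fold change of 0.40 (SE 0.15, adjusted p = 0.583 from edgeR) and 0.29 without Snhg11-ASO replicate 1, which held the highest value.

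The repressors differed in opposite directions. Mdm2, the ubiquitin ligase that is also a p53 target, was measured at 41.7, 41.8 and 40.1 CPM after Control-ASO and at 76.4, 51.5 and 49.8 CPM after Snhg11-ASO. The Control-ASO samples lay within 2 CPM of one another, and all Snhg11-ASO samples were above them, replicate 1 most of all. The log2 fold change of Mdm2 was 0.52 (SE 0.17, adjusted p = 0.549 from edgeR), or 0.30 without Snhg11-ASO replicate 1.

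Mdm4, the repressor that lacks ligase activity of its own, was measured at 123.6, 122.0 and 98.7 CPM after Control-ASO and at 75.2, 65.4 and 55.04 CPM after Snhg11-ASO. Its groups were well separated, at a mean of 114.8 ± 13.9 CPM (SD, n = 3) against 65.2 ± 10.1 CPM (SD, n = 3), which is 56.8% of the control level. This gave a log2 fold change of -0.82 (SE 0.15, adjusted p = 0.308 from edgeR, and 7.3e-04 from DESeq2). Over 17 alternatives the adjusted p ranged from 2.7e-07 to 0.951, and 4 of them, all DESeq2 fits, called it. Mdm4 differed more without Snhg11-ASO replicate 1, at -0.93. Per kilobase of exon, the ratio of Mdm2 to Mdm4, which was looked at after their values were seen, was 0.982, 0.997 and 1.18 after Control-ASO and 2.96, 2.29 and 2.64 after Snhg11-ASO. All Snhg11-ASO samples thus held more Mdm2 than Mdm4 RNA per length, and the Control-ASO samples about as much of either.

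**Figure D2:**
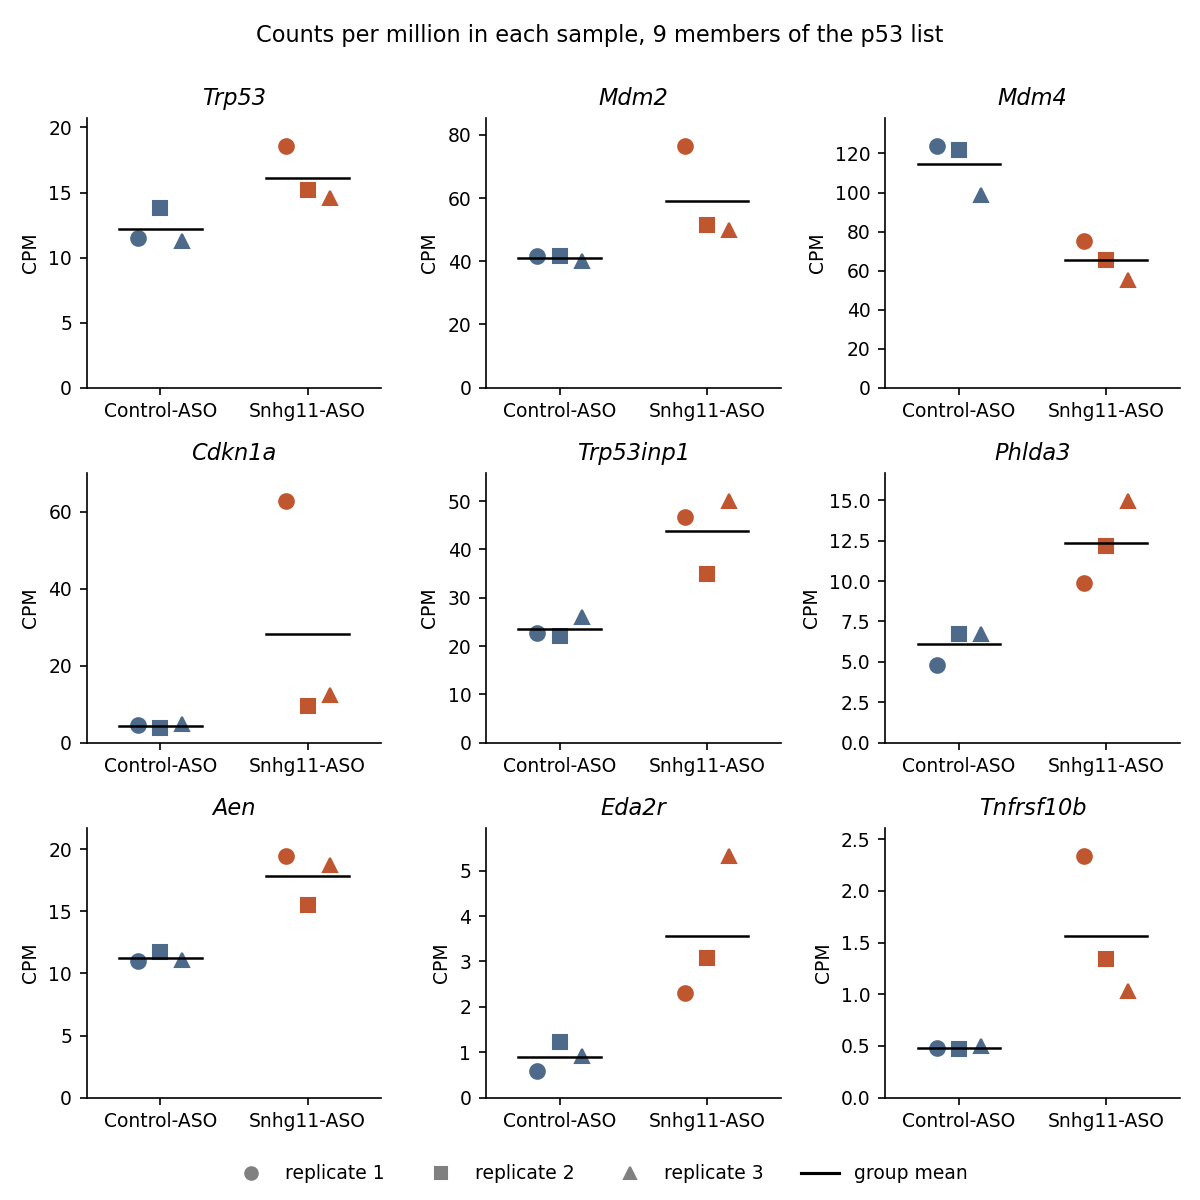
Level in CPM (y axis, from 0) of Trp53, the repressors and 6 targets in each Control-ASO (blue) and Snhg11-ASO (orange) sample, with the marker giving the replicate number and the bar the group mean (n = 3). Groups do not overlap in any of the 9 panels. Cdkn1a and Tnfrsf10b are highest in Snhg11-ASO replicate 1, whereas Phlda3 and Eda2r are lowest there among the Snhg11-ASO samples.

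Genes of cell cycle arrest included Cdkn1a, whose fold change was the largest of the members with all samples, though not without Snhg11-ASO replicate 1, where Eda2r had the largest. It encodes p21, the inhibitor of cyclin-dependent kinases through which p53 halts the cycle. Cdkn1a was at 4.66, 3.72 and 4.90 CPM after Control-ASO and at 62.6, 9.60 and 12.4 CPM after Snhg11-ASO. All Snhg11-ASO samples were above all controls, but by very different amounts: replicate 1 was at 14.2 times the control mean. The log2 fold change of 2.67 (SE 0.73, adjusted p = 0.494 from edgeR, and 0.0769 from DESeq2) became 1.31 without that sample. With any 1 Snhg11-ASO sample left out DESeq2 called Cdkn1a, and over 17 alternatives its adjusted p ranged from 4.7e-06 to 0.979.

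The RefSeq promoter sequences (GRCm38.p6, from 250 bases before to 50 bases after each annotated start) were searched for the p53 response element consensus, which is 2 abutting half-sites of 10 bases each, with its 4 invariant C and G bases intact and at most 1 mismatch. The consensus reads the same on both strands. A window was found for 26 of the 34 members, and 4 of these held a match, as did 0.0814% of the 27025 genes with a window (22 genes). All 4 are shown: Cdkn1a, Gtse1 and Rps27l, whose groups did not overlap, and Ccng1, whose groups did. The 20 bases that match are in capitals.
Cdkn1a, chr17:29090888-29090975, plus strand, between genes, the match 51 to 32 bases before a start: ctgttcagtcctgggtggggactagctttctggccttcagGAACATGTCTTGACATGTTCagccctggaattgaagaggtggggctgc
Ccng1, chr11:40755422-40755521, minus strand, between genes, the match 195 to 176 bases before the start: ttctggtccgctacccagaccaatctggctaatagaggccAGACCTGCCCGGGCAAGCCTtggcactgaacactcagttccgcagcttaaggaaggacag
Rps27l, chr9:66946256-66946354, plus strand, in an intron and before another start of the gene, the match 117 to 98 bases before it: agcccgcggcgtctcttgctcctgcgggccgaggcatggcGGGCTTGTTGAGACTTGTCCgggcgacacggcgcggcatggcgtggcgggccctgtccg
Gtse1, chr15:85859945-85859964, plus strand, across the start and into the first exon: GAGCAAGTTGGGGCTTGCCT
With up to 3 mismatches allowed, 8 members had a match, the others being Trp53, Sesn1, Aen and Bbc3, as did 1.63% of all genes. Such matches describe letters only, and the windows leave out more distant elements.

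Of the other genes in this group, Gadd45a, a growth arrest gene induced by DNA damage, was at 2.01, 2.11 and 2.58 CPM after Control-ASO and at 6.77, 2.90 and 3.02 CPM after Snhg11-ASO. Its groups did not overlap, but replicate 1 accounted for much of the log2 fold change of 0.92 (SE 0.38), which was 0.41 without it. Gtse1, a microtubule-binding protein that counteracts p53 in dividing cells, was scarce, at 0.714, 0.773 and 0.564 CPM against 0.813, 1.13 and 2.02 CPM. Here replicate 3 of the Snhg11-ASO samples was the highest and replicate 1 was close to the controls, and the log2 fold change was 0.95 (SE 0.40).

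Psrc1, a spindle protein, was at 7.10, 5.56 and 6.65 CPM after Control-ASO and at 4.46, 10.2 and 11.8 CPM after Snhg11-ASO. Its groups overlapped because replicate 1 was below all controls whereas the other two Snhg11-ASO samples were above them. The log2 fold change was 0.46 (SE 0.35) with all samples and 0.78 without replicate 1, where DESeq2 called it (adjusted p = 0.00686, range over 17 alternatives 0.00686 to 0.979). Ccng1, or cyclin G1, the member with the highest level per length, was likewise lowest in replicate 1, at 77.3, 89.6 and 104.2 CPM against 66.1, 103.2 and 129.1 CPM. The fold change of Ccng1 was 0.14 on the log2 scale (SE 0.24), and 0.36 without replicate 1. Plk3, a stress-responsive kinase, showed the reverse: replicate 1 was at 11.6 CPM, and all other samples of both groups lay between 4.05 and 5.17 CPM, so that its log2 fold change was 0.53 (SE 0.42) with replicate 1 and -0.12 without it.

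**Figure D3:**
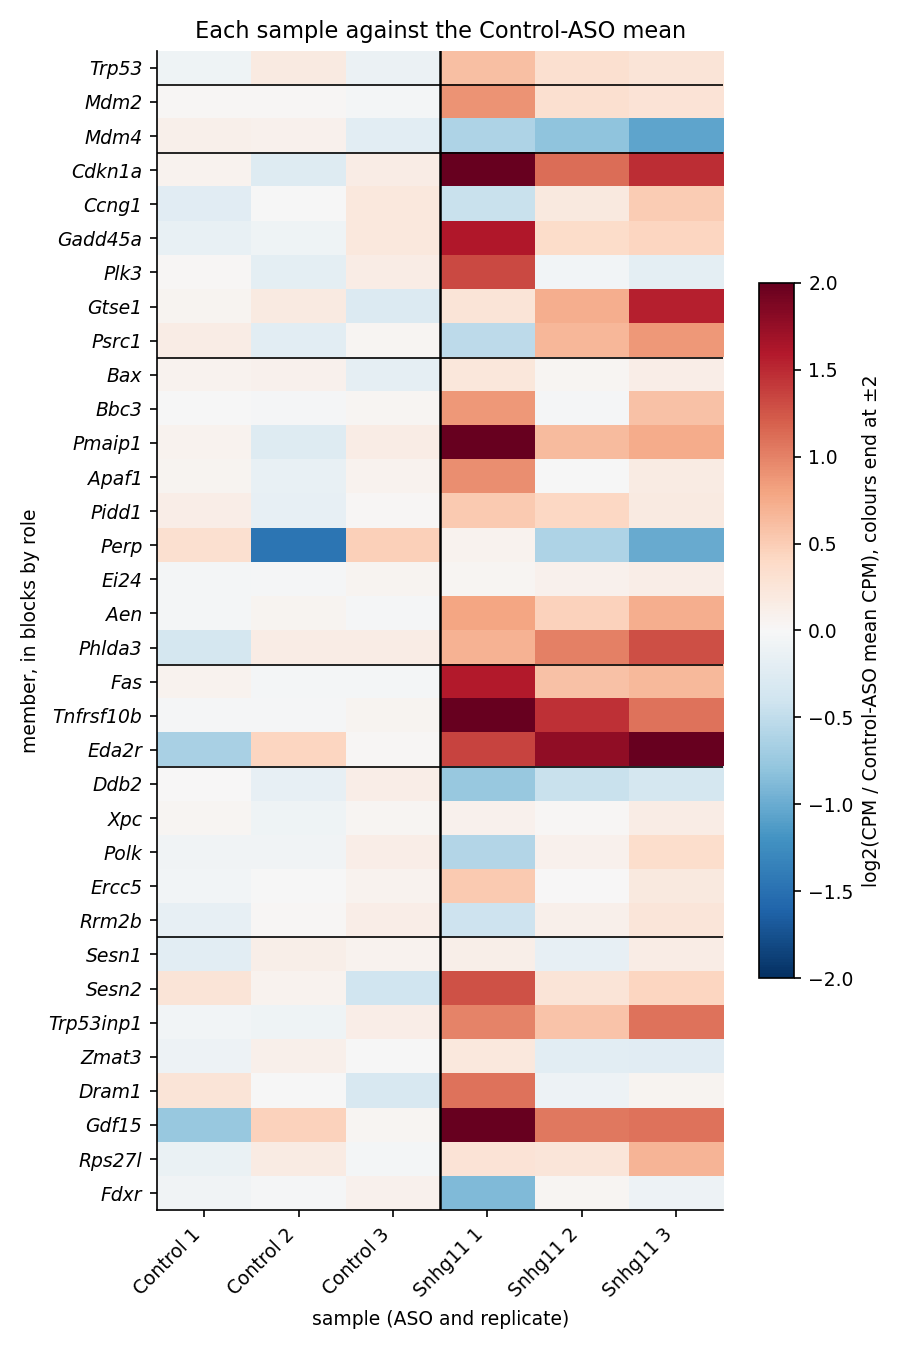
Level of each member (rows, in blocks by role) in each sample (columns) as the log2 ratio to the mean of the 3 Control-ASO samples, with red for higher and blue for lower and the colours ending at 2 in either direction. Phlda3, Eda2r, Aen and Trp53inp1 are red in all 3 Snhg11-ASO columns and Mdm4 is blue in all of them, whereas Ccng1 and Psrc1 are blue in replicate 1 and red in the other two.

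Among the apoptosis genes, Phlda3 and Aen differed most evenly between the groups. Phlda3, which keeps the kinase Akt from the membrane, was at 4.79, 6.75 and 6.71 CPM after Control-ASO and at 9.89, 12.2 and 14.9 CPM after Snhg11-ASO. The highest control was clearly below the lowest Snhg11-ASO sample, and the mean was 2.03 times that of the controls. Its log2 fold change was 1.02 (SE 0.22, adjusted p = 0.418 from edgeR, and 0.00582 from DESeq2, range over 17 alternatives 7.8e-05 to 0.970), and 1.16 without replicate 1.

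Aen encodes a nuclease that takes part in breaking down DNA during apoptosis. It was at 10.98, 11.7 and 11.1 CPM after Control-ASO and at 19.4, 15.5 and 18.7 CPM after Snhg11-ASO, so that the groups were far apart relative to their spread. Aen had a log2 fold change of 0.67 (SE 0.13, adjusted p = 0.378 from edgeR, and 0.0031 from DESeq2, range over 17 alternatives 0.00274 to 0.979). Leaving out replicate 1 changed it little, to 0.60.

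The mitochondrial arm of apoptosis was less uniform. Pmaip1, or Noxa, one of the small proteins that antagonise the Bcl2 family, was at 1.16, 0.922 and 1.22 CPM after Control-ASO and at 5.53, 1.70 and 1.83 CPM after Snhg11-ASO. All Snhg11-ASO samples were above the controls, and replicate 1 was 5.04 times the control mean. The log2 fold change of 1.46 (SE 0.50) was 0.69 without it. Bbc3, or Puma, a protein of the same kind, was at 2.41, 2.38 and 2.49 CPM against 4.43, 2.39 and 3.64 CPM, so that Snhg11-ASO replicate 2 lay among the controls, and its log2 fold change was 0.52 (SE 0.27), or 0.32 without replicate 1.

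Bax itself, the pore former on which these proteins converge, was at 8.37 to 10.1 CPM after Control-ASO and at 9.69 to 11.2 CPM after Snhg11-ASO, with a log2 fold change of 0.13 (SE 0.14) that was 0.08 without replicate 1. It shares 192 bases, or 12.2% of its exons, with Gm45808 on the same strand, and read pairs falling there are not counted. Apaf1, the scaffold of the apoptosome, was at 22.0 to 25.5 CPM in the controls and at 46.5, 24.1 and 27.3 CPM after Snhg11-ASO, a log2 fold change of 0.43 (SE 0.25) that was 0.08 without replicate 1. Pidd1, which forms a platform for caspase activation, was above the controls in all Snhg11-ASO samples but narrowly, at 1.02, 0.832 and 0.950 CPM against 1.34, 1.24 and 1.05 CPM.

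Ei24, a protein of the endoplasmic reticulum, showed the smallest error of all members, with a log2 fold change of 0.09 (SE 0.08). Perp, a membrane protein of cell contacts, varied widely among the controls, at 4.56, 1.34 and 5.11 CPM, with 3.86, 2.39 and 1.83 CPM after Snhg11-ASO. The 3 samples with the most Perp were also the 3 with the most RNA of the choroid plexus marker Ttr, named after its values were seen, which was at 1752, 12.9 and 1126 CPM after Control-ASO and at 1192, 85.4 and 37.7 CPM after Snhg11-ASO. The log2 fold change of Perp was -0.45 (SE 0.52). It became -0.79 when Snhg11-ASO replicate 1 was left out, and ranged from -0.84 to -0.14 on leaving out the second or the third Control-ASO sample. The part of choroid plexus tissue in it was not tested.

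All 3 death receptor genes, which pass signals from ligands of the tumour necrosis factor family, were higher in every Snhg11-ASO sample than in every Control-ASO sample. Eda2r, the receptor for a form of ectodysplasin, was at 0.578, 1.22 and 0.920 CPM after Control-ASO and at 2.31, 3.09 and 5.31 CPM after Snhg11-ASO, from 17 to 41 and from 88 to 232 read pairs. The mean was 3.94 times that of the controls, with replicate 3 highest and replicate 1 lowest. Its log2 fold change was 1.97 (SE 0.42, adjusted p = 0.418 from edgeR, and 0.00345 from DESeq2, range over 17 alternatives 1.3e-04 to 0.979), and it was larger without replicate 1, at 2.20.

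Tnfrsf10b, the mouse receptor for the ligand TRAIL, had the lowest level per length of all members in the Control-ASO group. It was at 0.476, 0.476 and 0.505 CPM after Control-ASO, from 14 to 17 read pairs, and at 2.33, 1.34 and 1.03 CPM after Snhg11-ASO, from 45 to 89 read pairs. Even the lowest Snhg11-ASO sample was well above the controls. Its log2 fold change was 1.68 (SE 0.38, adjusted p = 0.435 from edgeR, and 0.0419 from DESeq2), and 1.28 without replicate 1. Over the 16 alternatives that gave an adjusted p for Tnfrsf10b, it ranged from 0.0419 to 0.979. DESeq2 gave none without Snhg11-ASO replicate 1, 0.120 without replicate 2 and 0.0437 without replicate 3. Fas, the receptor of Fas ligand, was at 1.67, 1.55 and 1.54 CPM against 4.77, 2.37 and 2.47 CPM, with a log2 fold change of 1.01 (SE 0.33) that was 0.61 without replicate 1.

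The DNA repair genes had small or negative log2 fold changes. Ddb2, which recognises DNA lesions caused by ultraviolet light, was the only target below the controls in all Snhg11-ASO samples, at 9.21, 8.20 and 10.1 CPM against 5.43, 6.75 and 7.19 CPM. Ddb2 differed by -0.50 on the log2 scale (SE 0.17, adjusted p = 0.551 from edgeR). Of its exons, 23.8% lie opposite exons of Acp2, from which strand-specific counting keeps it apart.

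The other 4 repair genes overlapped between the groups. Xpc, which recognises bulky lesions, was at 17.4 to 19.0 CPM after Control-ASO and at 18.7 to 20.4 CPM after Snhg11-ASO, with a log2 fold change of 0.09 (SE 0.11). For Ercc5, an endonuclease of excision repair, it was 0.26 (SE 0.15), of which 0.10 remained without replicate 1. Polk, a polymerase that copies across lesions, had 0.00 (SE 0.24) and Rrm2b, a subunit of ribonucleotide reductase, 0.01 (SE 0.18). In both, Snhg11-ASO replicate 1 was below every control and replicate 3 above every control, and without replicate 1 the values were 0.22 and 0.18.

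In the group of stress and metabolism, Trp53inp1 gave the clearest difference. The protein is a cofactor of p53 that also takes part in autophagy. It was at 22.6, 22.2 and 26.0 CPM after Control-ASO and at 46.7, 34.9 and 49.95 CPM after Snhg11-ASO, without overlap and with a mean 1.86 times that of the controls. Trp53inp1 had a log2 fold change of 0.90 (SE 0.16, adjusted p = 0.308 from edgeR, and 4.4e-04 from DESeq2, range over 17 alternatives 3.4e-06 to 0.951). It changed little without replicate 1, at 0.85, and was called by DESeq2 with any 1 Snhg11-ASO sample left out.

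Sesn2, a sestrin that restrains growth signalling when nutrients are short, was at 10.1, 8.89 and 6.44 CPM after Control-ASO and at 20.5, 10.2 and 11.4 CPM after Snhg11-ASO. The groups only just did not overlap, and the log2 fold change of 0.73 (SE 0.31) was 0.35 without replicate 1. Its relative Sesn1 was at 41.4 to 51.4 CPM in the controls and at 42.7 to 52.6 CPM after Snhg11-ASO, with a log2 fold change of 0.04 (SE 0.13) that was close to 0 without replicate 1.

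Gdf15, a cytokine released by stressed cells, was close to the detection limit, with 3, 8 and 6 read pairs after Control-ASO and 27, 15 and 16 after Snhg11-ASO. At such counts the log2 fold change of 1.43 (SE 0.48), or 1.04 without replicate 1, is imprecise, and DESeq2 gave no adjusted p. Rps27l, a variant of a ribosomal protein, was at 6.80, 8.35 and 7.33 CPM against 9.05, 8.88 and 12.1 CPM, with a log2 fold change of 0.42 (SE 0.18) and no overlap.

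The remaining genes of the group overlapped between the groups. Zmat3, a zinc finger protein that binds RNA, was at 59.5 to 68.0 CPM after Control-ASO and at 73.3, 55.2 and 54.4 CPM after Snhg11-ASO, with a log2 fold change of -0.06 (SE 0.14), or -0.22 without replicate 1. Dram1, a lysosomal protein of autophagy, had 0.44 (SE 0.38), all of it from replicate 1, without which it was -0.02. Fdxr, a reductase of mitochondrial electron transfer, had -0.26 (SE 0.25), or -0.03 without replicate 1, and here too replicate 1 stood alone, at 5.06 CPM against 8.66 to 9.92 CPM in all other samples.

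Among the targets by role, the median log2 fold change was 1.68 for the 3 death receptors, 0.72 for the 6 genes of cell cycle arrest, 0.43 for the 9 of apoptosis, 0.43 for the 8 of stress and metabolism and 0.01 for the 5 of DNA repair. Every Snhg11-ASO sample was above every control for 3, 3, 4, 4 and 0 of these genes, against 7.73% of all genes. Without Gdf15, whose direction the filter fixed, the group of stress and metabolism had a median of 0.42, with 3 of 7 such genes. The other 13 targets that were higher without overlap had a median level of 1.25 CPM per kilobase of exon in the Control-ASO samples, and the 16 that overlapped one of 3.34, where all genes tested had 2.78. Both sets spanned a wide range, from 0.0891 to 9.19 and from 0.558 to 25.7 CPM per kilobase. Genomic span had a median of 16.9 kb for the members and of 16.9 kb for all genes tested.

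The members' behaviour differed between the Snhg11-ASO samples. Relative to the control mean, the median log2 level of the 31 targets was 0.52, 0.20 and 0.44 in Snhg11-ASO replicates 1, 2 and 3, and between -0.03 and 0.07 in the Control-ASO samples. Of the 14 targets without overlap that were higher, 9 had their highest value in replicate 1, 5 in replicate 3 and 0 in replicate 2. Gdf15, whose direction the filter fixed, was among the 14 and among these 9. Replicate 1 was below every control in 6 targets, namely Ccng1, Psrc1, Ddb2, Polk, Rrm2b and Fdxr. Without replicate 1 the targets' median was 0.32, and 10 of the 14, Gdf15 among them, had a smaller fold change. All 14 together then ranged from 0.30 to 2.20.

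**Figure D4:**
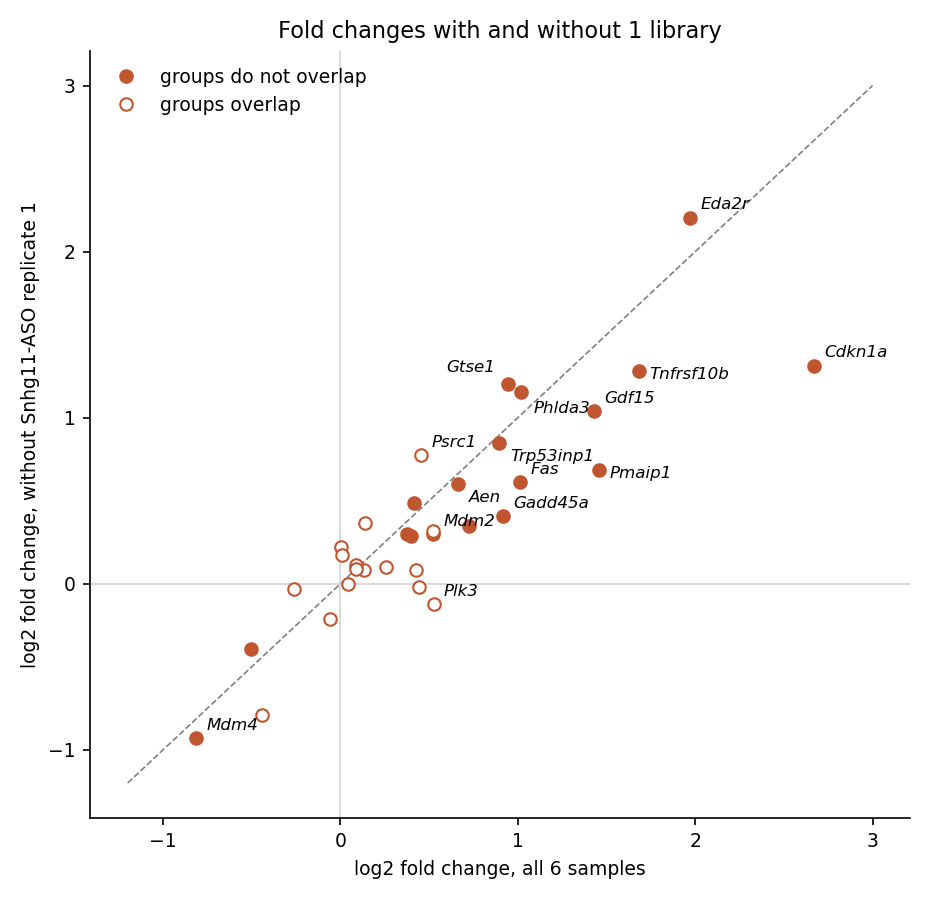
Log2 fold change of each of the 34 members with all 6 samples (x axis) and without Snhg11-ASO replicate 1 (y axis), both from edgeR. The dashed line marks equal values and filled points are members without overlap between the groups. Cdkn1a falls farthest below the line, from 2.67 to 1.31, whereas Eda2r, Phlda3 and Gtse1 lie above it.

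Markers of reactive glia and injury were measured beside the targets. All 10 genes of that list were higher in the Snhg11-ASO group, 8 of them (80.0%) without overlap, against 7.73% of all genes. Their summed level was 181 to 433 CPM after Control-ASO and 599 to 1284 CPM after Snhg11-ASO, highest in replicate 1. Lgals3, a lectin of activated phagocytes, Serpina3n and Spp1 had log2 fold changes of 2.10 (SE 0.47), 1.35 (SE 0.37) and 1.88 (SE 0.52). Cd44, a receptor for hyaluronan named here after its values were seen, was at 200.3 CPM in replicate 1 and at 16.5 to 43.4 CPM elsewhere. Their part in the p53 list was not tested. Without replicate 1 all 10 remained higher, with a median of 1.08 in place of 1.99.

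Blood-derived myeloid markers summed to 3.69 to 7.17 CPM after Control-ASO and to 49.9 CPM in Snhg11-ASO replicate 1, but to 8.21 and 7.10 CPM in replicates 2 and 3. All 7 of them were higher in the Snhg11-ASO group, 1 (14.3%) without overlap, against 7.73% of all genes. This was the monocyte gene Ly6c2 (0.306, 0.535 and 0.564 CPM against 2.89, 1.60 and 1.79 CPM). Without replicate 1 only 4 of the 7 were higher, and their median log2 fold change was 0.28 in place of 1.27. Plac8 and S100a8 had log2 fold changes of 1.27 (SE 0.49) and 3.96 (SE 1.97). Microglial markers were lowest in replicate 1, with a sum of 198 CPM against 288 to 563 CPM in all other samples. Oligodendrocyte markers summed there to 1628 CPM, within the control range of 1549 to 2848 CPM, and all 6 of them had a log2 fold change above 0 over the group. Relative to the control mean, however, their median log2 level was -0.94 in replicate 1 and 0.77 and 0.53 in replicates 2 and 3. The Control-ASO samples were at -0.34, 0.46 and -0.12. For astrocyte markers it was -0.76, 0.29 and 0.51 after Snhg11-ASO, and -0.31, 0.29 and 0.05 after Control-ASO. The 8 neuronal markers summed to 4154 to 4663 CPM after Control-ASO and to 3889 to 4236 CPM after Snhg11-ASO. Of these, 7 had a log2 fold change below 0 and 1 had one above 0. Syt1 and Gad1, 2 of the 8, were below the controls in all Snhg11-ASO samples, which was so for 7.7% of all genes. The part of a changed cell make-up in the members' values was not tested.

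**Figure D5:**
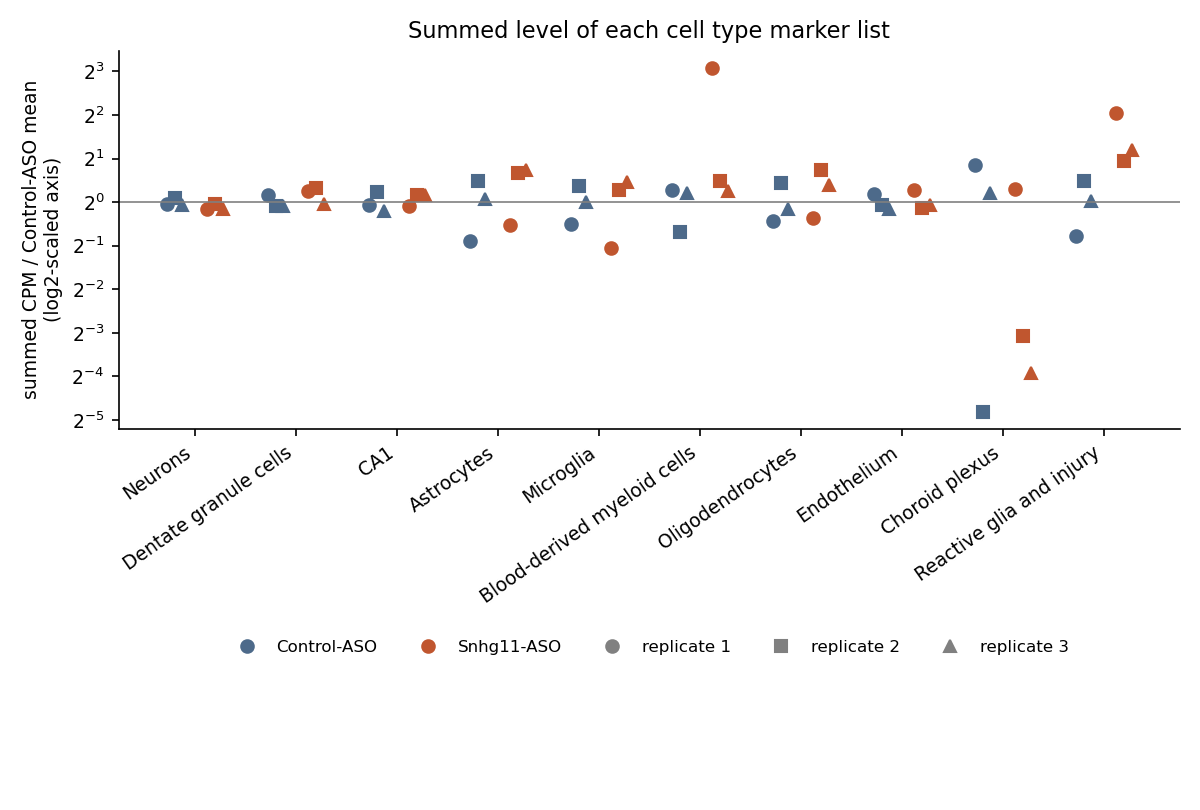
Summed CPM of each marker list (x axis) divided by its Control-ASO mean (y axis, log2-scaled) in each Control-ASO (blue) and Snhg11-ASO (orange) sample, with the marker giving the replicate number. Reactive glia and injury is the only list in which all Snhg11-ASO samples lie above all Control-ASO samples. Blood-derived myeloid markers are far up in Snhg11-ASO replicate 1, and the choroid plexus list varies most.

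A further 32 genes known as p53 targets were measured beside the 31 of the list. Their median log2 fold change was 0.25, and 0.12 without replicate 1, with 24 higher and 8 lower. For 3 of them every Snhg11-ASO sample was above every control, and for 0 below, which is 9.38% and close to the 7.73% of all genes. Tap1, a peptide transporter of antigen presentation, was the only one that DESeq2 called (adjusted p = 0.016, range over 17 alternatives 0.0029 to 0.951), at 8.08 ± 2.32 CPM (SD, n = 3) after Control-ASO and 18.3 ± 5.19 CPM (SD, n = 3) after Snhg11-ASO, without overlap. Its log2 fold change was 1.18 (SE 0.29, adjusted p = 0.465 from edgeR). The others were Ckap2, a spindle protein, with 0.99 (SE 0.31), and Triap1, an inhibitor of apoptosis named after its values were seen, with 0.19 (SE 0.15).

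Of 26 genes that act on p53, 25 were tested, with a median log2 fold change of 0.10. None was called by either tool, edgeR giving 0 at an unadjusted p under 0.05. Cdkn2a, whose product Arf holds back Mdm2, was not tested, being at 0 to 0.0916 CPM. The checkpoint kinase Chek1 had a log2 fold change of 0.62 (SE 0.29), the ubiquitin ligase Rchy1 0.23 (SE 0.12) and the demethylase Kdm1a 0.19 (SE 0.10). For the kinases that sense DNA damage, named after their values were seen, the values were 0.06 (SE 0.09) for Atm, -0.14 (SE 0.14) for Atr and -0.22 (SE 0.13) for Prkdc. Rpl5 and Rpl11, the ribosomal proteins that bind Mdm2 when ribosome production is disturbed, had 0.04 (SE 0.10) and -0.01 (SE 0.11).

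Genes bound by the DREAM complex, the repressor that p53 engages by way of p21, had a median of 0.15, with 11 of 14 higher and 3 lower. The median depended on single samples, at 0.31 without Snhg11-ASO replicate 1 and 0.0022 without replicate 3 of that group, where 7 of 14 were higher. Among the controls, leaving out replicate 1 gave 0.36 and leaving out replicate 3 gave 0.0084. Ccnb2, or cyclin B2, was the only one without overlap, with a log2 fold change of -0.46 (SE 0.24), where 7.7% of all genes were lower without overlap. Kif23 and Plk1 had 0.81 (SE 0.59) and 0.38 (SE 0.27). The groups overlapped in this list: its median relative to the control mean was 0.36, 0.10 and -0.46 after Control-ASO and -0.46, 0.26 and 0.39 after Snhg11-ASO. Top2a, named after its values were seen, was at 1.36 CPM in Snhg11-ASO replicate 1 and at 4.78 to 12.1 CPM in all other samples. The part of p21 in these values was not tested.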

How the data were processed

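The authors aligned paired reads of 50 bases to the mouse genome (mm10) with STAR (2.5.2a in the submitters' notes) and deposited, for each sample, the raw count of read pairs on every gene, without normalization. The study's methods name Rsubread for counting, but the deposited counts are those STAR writes. Lines that name no gene held 43.5% to 51.4% of the pairs and were left out. Pairs on several genes (0.600% to 0.761%) and multi-mapping pairs are not counted, so genes that share exons are undercounted. Reverse-strand counts were used (96.2% to 96.8% of stranded pairs). Symbols came from GENCODE M21, which matched 55141 of 55401 identifiers. Ddit3 had a pair of identifiers, of which 1 was used.

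Genes passed filterByExpr at a minimum count of 10. Snhg11-ASO was set against Control-ASO by quasi-likelihood in edgeR 4.0.16 (R 4.3.3) with TMM scaling and Benjamini-Hochberg adjustment over all genes at 0.05. The SE was taken as the absolute log2 fold change over the root of F. Alternatives were DESeq2 1.42.0, its size factors in edgeR, both strands, other filters, span offsets, a replicate block, and leaving out each sample, for DESeq2 each Snhg11-ASO sample. In counts simulated once with known changes, drawn with the dispersions that edgeR had fitted, DESeq2 called more unchanged genes than its threshold allows. With edgeR this was not so. The simulated counts held no library set apart as Snhg11-ASO replicate 1 was, so they cannot judge the calls of either tool here. The study removed 1 Snhg11-ASO sample that it does not name, whereas all were kept here. Each library is from 1 mouse by the study's methods, and the labels alone do not say so. The main fit took the samples as unpaired, and neither the labels nor the study's methods give a pairing. Only the alternatives with a replicate block took replicate numbers to pair samples of both groups. The reason was that the deviations from the group mean correlated (r = 0.297, 0.179 and 0.103 for numbers 1 to 3, each above 0.1). A pair of unequal numbers, Control-ASO 2 with Snhg11-ASO 3, also correlated (r = 0.188), and more than the equal numbers 2 and 3 did.

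The members and lists were chosen with earlier results of these data known. All members are named, with every gene of a further list past the threshold or otherwise the 3 with the smallest p. One gene of a further list is not reported here.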

Additional observations from a re-analysis of the deposited data

How the results depend on the processing

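Of the 34 members, 27 kept their direction under all 17 alternatives. Polk turned to -0.042 with the replicate block, -0.0060 with span offsets and -0.056 with both, and ranged from -0.21 to 0.22 with 1 sample left out, in edgeR or DESeq2. Rrm2b gave -0.014, -0.031 and -0.053 in the same fits and -0.13 to 0.18. With 1 sample left out, Ccng1 ranged from -0.095 to 0.36, Plk3 from -0.13 to 0.79, Sesn1 from -0.059 to 0.13, Zmat3 from -0.22 to 0.016 and Dram1 from -0.023 to 0.65. The paired fits with the block changed no call: edgeR called 0 members with the block and under all its other alternatives.

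DESeq2 called 6 members and 258 genes with all samples. With 1 sample left out, DESeq2 or edgeR called 0 to 7 members and 0 to 347 genes, and edgeR alone at most 2 genes. Snhg11 was called by DESeq2 at -2.13, and with 1 sample left out it ranged from -2.57 to -1.83. With 1 sample left out, 7 to 17 members were at an unadjusted p under 0.05, against 4.36% to 9.94% of all genes. The targets' median log2 fold change ranged from 0.31 to 0.60, that of the other targets from 0.11 to 0.28 and that of the regulators from 0.0080 to 0.12. With the block and span offsets together the other targets' median was 0.19. With span offsets, with or without the block, 14 members (41.2%) were higher without overlap, in place of 16 (47.1%). The groups of Trp53 overlapped in these fits. The low counts of Gdf15, Tnfrsf10b and Eda2r limit their precision, and the cause of these shifts was not tested.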

Other observations

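Genes of the integrated stress response, which cells use against amino acid shortage and misfolded proteins and which shares Sesn2 and Gdf15 with the p53 pathway, were measured beside the list. Their median log2 fold change was 0.32, with 11 of 13 higher, and 0.16 without Snhg11-ASO replicate 1. Atf3, a transcription factor of this response, was at 1.73, 1.58 and 1.16 CPM after Control-ASO and at 18.3, 2.58 and 2.61 CPM after Snhg11-ASO. All Snhg11-ASO samples were above the controls, and the log2 fold change of 2.39 (SE 0.82, adjusted p = 0.551 from edgeR) was 0.81 without replicate 1. Trib3, which dampens the response, had 1.41 (SE 0.56), and Ddit3, a factor that favours cell death, 0.32 (SE 0.15). Atf4, the response's main factor and named after its values were seen, was at 54.3 to 59.6 CPM in the controls and at 118.7, 56.4 and 69.6 CPM after Snhg11-ASO.

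Endothelial markers summed to 110 to 141 CPM after Control-ASO and to 113 to 150 CPM after Snhg11-ASO, and astrocyte markers to 1178 to 3083 CPM and to 1523 to 3655 CPM. Granule cell markers summed to 237 to 283 CPM and to 245 to 315 CPM, CA1 markers to 211 to 288 CPM and to 231 to 273 CPM, and oligodendrocyte markers to 1549 to 2848 CPM and to 1628 to 3512 CPM. Groups overlapped in all of these sums.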
